A study of Mus musculus with 2 samples.

Results

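Genes of fibroblasts and of the non-collagen extracellular matrix were compared between mammary epithelial cell preparations from Cuzd1-null mice and from Cuzd1-heterozygous littermates. The list held 38 genes. A probe set whose annotation gives a single gene symbol was found for 35 of them, among 18193 genes with such a probe set on the array, and these 35 genes had 81 probe sets. Fbn1, Efemp2 and Loxl2 had no such probe set and were not analysed here.

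Both groups were C57BL/6 females, backcrossed repeatedly, on day 18 of pregnancy. In the first group Cuzd1, which codes for a membrane glycoprotein with CUB domains, was knocked out by homologous recombination. The second group is heterozygous for the same allele and is not wild type. Inguinal glands were minced and digested with collagenase and hyaluronidase, and the pelleted cells were washed. RNA of 5 mice was pooled per genotype and each pool was read on 1 array, so 2 arrays carry the comparison, no spread between animals was measured, and no test was possible. No sort or gate is recorded in the labels. The age of the mice is not given there.

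Fibroblasts of the mammary stroma secrete the matrix that surrounds ducts and alveoli. Small proteoglycans bind collagen fibrils and set their spacing, fibrillins and fibulins form the scaffold on which elastin is laid down, and lysyl oxidases cross-link collagen and elastin. Matricellular proteins such as tenascins, thrombospondins and periostin bind cells and growth factors rather than giving the matrix its strength, and several of them are also made by epithelial, myoepithelial or endothelial cells.

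Most of these genes read higher in the null pool. Of the 33 genes that were measured, meaning that their brightest probe set was above background on at least 1 array, 29 had a log2 ratio of null over heterozygous above 0, against 54.0% of all 11893 measured genes. The median log2 ratio was 0.59 (quartiles 0.25 and 0.81), against 0.03 over all measured genes (quartiles -0.18 and 0.23). Spon2, Pdgfra, Efemp1, Ogn, Loxl1 and Fbln2 were at least 2-fold higher, which is 6 of the 33 members against 1.12% of all measured genes. At least 2-fold lower were 0 members, against 1.03% of all measured genes. At 1.5-fold, a size chosen after the data were seen, 17 members were higher, against 5.83% of genes, and 0 were lower, against 4.93%. The lowest ratios belonged to Tnc, Postn and Thbs1, which are matricellular genes. However, 2 members, Cd248 and Tnxb, counted as measured through the null array alone and so had to differ. The counts are therefore also given for the 31 members above background on both arrays. Of these, 27 were above 0, against 54.7% of 10610 genes above background on both arrays, and 6 were at least 2-fold higher, against 0.867%. At 1.5-fold 16 of the 31 were higher, against 547 of the 10610 genes.

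Background was set on each array at its median signal over non-control probe sets, 32.5 intensity units in the null pool and 34.2 units in the heterozygous pool, and lower signals were raised to this floor before the ratio was taken. The floors differ, so a gene at the floor on both arrays has no ratio. The ratio of a gene above the floor on 1 array alone is a bound, and its sign is nearly always set by which array that was. The same holds in the other lists. Signals are linear and were scaled by the authors to the same trimmed mean on both arrays. For the hybridization controls, 9 probe sets for RNA that is normally spiked in at equal amounts, the median log2 ratio was -0.23. If they are used as the scale, the median of all genes becomes 0.26 and that of the members 0.82. The difference between the members' median and that of all genes was 0.57 as deposited and 0.56 on that scale. Cuzd1 itself read 34.0 units in the null pool and 32.4 units in the heterozygous pool, both next to the floor, so it does not check the labels. All 12 luminal epithelial markers looked for were above the floor on both arrays, with a median log2 ratio of -0.08 that became 0.15 on that scale, and Wap, a milk protein, read 13117 units in the null pool and 15403 units in the heterozygous pool.

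In pooled preparations of this kind, more cells of a type and more RNA per cell cannot be told apart.

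**Figure D1:**
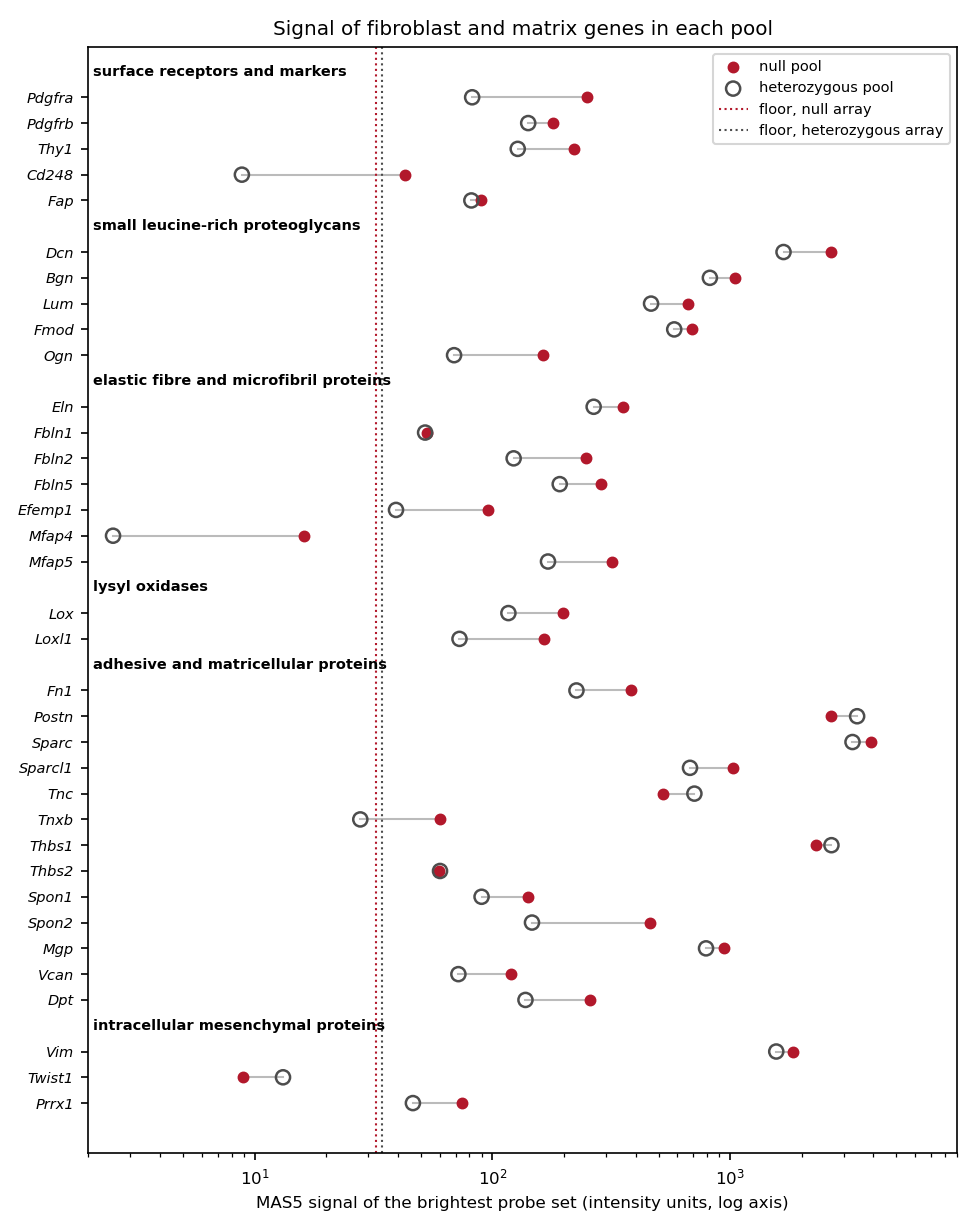
MAS5 signal of the brightest probe set of each of the 35 members, in intensity units on a log axis, with filled points for the null pool and rings for the heterozygous pool, each 1 array, and dotted lines at the 2 floors. The filled point lies to the right of its ring for most genes in every role group, and to the left for Postn, Tnc and Thbs1, narrowly for Thbs2, and for Twist1, which is below both floors.

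The start regions of the members that stand at both ends of the list are shown here because these genes moved together or apart. Of the 6 members at least 2-fold higher, 4 had an entry in the RefSeq promoter table (build GRCm38.p6), as did 3 members below 0, Postn, Tnc and Thbs2. Thbs2, whose ratio of -0.02 is given no direction, is not printed. Each line gives the 250 bases before the annotated start, read 5′ to 3′ along the gene's strand, with capitals marking, on either strand, the TATA box TATAAA, the GC box GGGCGG, the AP-1 type site TGANTCA, the TEAD-type site GGAATG and the SMAD-type element CAGACA. Where a gene had several entries, the first was taken. The windows lie at chr5:75152001-75152250 (plus strand) for Pdgfra, chr13:49607765-49608014 (plus) for Ogn, chr11:28852955-28853204 (plus) for Efemp1, chr6:91212514-91212763 (plus) for Fbln2, chr3:54359017-54359266 (plus) for Postn and chr4:64047016-64047265 (minus) for Tnc.
Pdgfra: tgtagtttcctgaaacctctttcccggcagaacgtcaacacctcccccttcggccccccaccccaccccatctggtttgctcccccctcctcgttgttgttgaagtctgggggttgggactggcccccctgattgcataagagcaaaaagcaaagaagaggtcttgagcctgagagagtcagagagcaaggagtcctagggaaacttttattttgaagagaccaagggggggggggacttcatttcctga
Ogn: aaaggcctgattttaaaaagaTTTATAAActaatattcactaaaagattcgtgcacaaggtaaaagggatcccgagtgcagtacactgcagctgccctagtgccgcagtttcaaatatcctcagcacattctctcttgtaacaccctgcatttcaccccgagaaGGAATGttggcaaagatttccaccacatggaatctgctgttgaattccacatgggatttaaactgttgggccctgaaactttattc
Efemp1: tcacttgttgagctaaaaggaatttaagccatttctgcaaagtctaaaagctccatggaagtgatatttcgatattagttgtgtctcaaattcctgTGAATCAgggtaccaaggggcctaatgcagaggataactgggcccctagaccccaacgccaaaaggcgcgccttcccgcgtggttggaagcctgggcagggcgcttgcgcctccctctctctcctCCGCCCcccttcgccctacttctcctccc
Fbln2: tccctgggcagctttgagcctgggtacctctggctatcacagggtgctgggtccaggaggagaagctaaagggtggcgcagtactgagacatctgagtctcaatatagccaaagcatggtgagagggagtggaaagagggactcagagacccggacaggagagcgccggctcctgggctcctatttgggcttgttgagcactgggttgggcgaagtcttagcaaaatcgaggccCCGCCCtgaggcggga
Postn: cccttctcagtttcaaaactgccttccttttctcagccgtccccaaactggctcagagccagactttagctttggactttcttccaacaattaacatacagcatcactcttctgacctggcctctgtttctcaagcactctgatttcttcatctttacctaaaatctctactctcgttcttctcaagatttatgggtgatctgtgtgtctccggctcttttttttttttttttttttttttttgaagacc
Tnc: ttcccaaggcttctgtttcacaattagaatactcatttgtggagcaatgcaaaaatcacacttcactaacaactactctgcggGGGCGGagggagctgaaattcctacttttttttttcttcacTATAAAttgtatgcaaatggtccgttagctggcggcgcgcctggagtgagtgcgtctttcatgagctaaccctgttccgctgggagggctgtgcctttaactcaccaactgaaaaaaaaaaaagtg

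None of the 5 motifs in capitals was in all 4 windows of the higher genes. The E-box CANNTG, which was not put in capitals and is bound by factors such as Twist1, was in all 4 and in Tnc but not in Postn, and 66.0% of 27025 genes hold it. The GC box GGGCGG, a site of Sp1 and related factors, occurred in Efemp1 and Fbln2 but also in Tnc. Ogn held TATAAA on both strands in 1 overlapping stretch and the TEAD-type GGAATG, and Efemp1 held the AP-1 type TGANTCA. Pdgfra and Postn held none of the 5. Over the 20 members with a promoter entry, measured or not, TATAAA was found in 5 (25%, against 13.0% of genes), GGGCGG in 9 (45% against 32.9%) and the E-box in 14 (70.0% against 66.0%). TGANTCA was found in 2 members (against 6.87% of genes), GGAATG in 2 (against 12.6%) and the SMAD-type CAGACA in 4 (against 17.1%). These are matches of letters in a short window and do not show that a factor binds there.

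The surface receptors and markers, by which fibroblasts and pericytes are usually recognised, were above 0 for all 5 genes, with a median log2 ratio of 0.34. The floor set the sign of Cd248, which passed it in the null pool alone. Without Cd248 the median of the other 4 was 0.56. Pdgfra, the receptor for PDGF-A and a general marker of fibroblasts, read 250.5 units in the null pool and 82.2 units in the heterozygous pool, a log2 ratio of 1.61. Its next probe set read 53.8 units in the null pool and 52.2 units in the heterozygous pool, a ratio of 0.04, so the high ratio rests on 1 of its 2 measured probe sets. Thy1, a surface glycoprotein of stromal cells that T cells and neurons also carry, read 219.8 units in the null pool and 128 units in the heterozygous pool, with a ratio of 0.78. Pdgfrb, the receptor of pericytes and fibroblasts, differed less: it read 179.6 units in the null pool and 141 units in the heterozygous pool, a ratio of 0.34, and 0.25 at its other probe set. Cd248, endosialin, read 43.0 units in the null pool and 8.84 units, below the floor, in the heterozygous pool, and was at least 1.26-fold higher. Fap, a membrane protease of activated fibroblasts, had a ratio of 0.14, from 89.7 units in the null pool and 81.6 units in the heterozygous pool. The genes for the ligands of these receptors, Pdgfa, Pdgfb, Pdgfc and Pdgfd, had a median ratio of -0.02, with 2 of 4 above 0 and Pdgfb at -0.22; their median was 0.21 on the scale of the hybridization controls.

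All 5 small leucine-rich proteoglycans had a ratio above 0 at their brightest probe set, with a median of 0.51. Dcn, decorin, which coats collagen fibrils and binds TGF-beta, read 2655 units in the null pool and 1677 units in the heterozygous pool, a log2 ratio of 0.66. Among genes of similar signal the quartiles of the ratio were -0.18 and 0.08. Bgn, biglycan, the closest relative of decorin, was higher at all 3 of its probe sets, with ratios of 0.35, 0.63 and 0.49. Its brightest read 1045 units in the null pool and 822 units in the heterozygous pool. Lum, lumican, read 664 units in the null pool and 465 units in the heterozygous pool, a ratio of 0.51.

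Ogn and Fmod were less uniform within the gene. Ogn, osteoglycin, read 163.8 units in the null pool and 69.0 units in the heterozygous pool at its brightest probe set, 2.37-fold higher, but 83.3 and 86.8 units at the other, a ratio of -0.06. Fmod, fibromodulin, which regulates fibril thickness, had 6 measured probe sets with ratios between -0.49 and 0.26. The mean over them was -0.05, and 5 of these probe sets, the brightest among them, carry the suffix that marks probes able to bind other transcripts. No direction is given for Fmod. Of the other leucine-rich proteoglycans, 4 of 10 listed were measured and 0 of them were above 0, with a median of -0.15; on the scale of the hybridization controls that median was 0.08. Prelp, a basement membrane proteoglycan, had a ratio of -0.04.

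Elastic fibre and microfibril genes had a median ratio of 0.73 over 6 measured of 9 listed genes. Efemp1, fibulin-3, read 96.1 units in the null pool and 39.3 units in the heterozygous pool, 2.44-fold higher, with 1 probe set close to the floor in the heterozygous pool. Fbln2, which links fibrillin and basement membrane proteins, read 248 units in the null pool and 123 units in the heterozygous pool, 2.02-fold higher and so just inside the 2-fold line; after quantile normalization its log2 ratio was just below 1, at 0.98. Just outside it, Dpt and Mfap5 had log2 ratios of 0.90 and 0.89. Mfap5, a microfibril glycoprotein, read 318 units in the null pool and 171 units in the heterozygous pool, but had a ratio of 0.16 at its second probe set. Fbln5, which is needed for elastic fibre assembly, read 285 units in the null pool and 192 units in the heterozygous pool, a ratio of 0.57. Eln, elastin itself, read 354 units in the null pool and 267 units in the heterozygous pool, a ratio of 0.41. Its second probe set read 47.2 units in the null pool and 18.3 units, below the floor, in the heterozygous pool, a ratio of at least 0.46. Fbln1 did not share this difference, with 52.9 units in the null pool, 52.1 units in the heterozygous pool and a ratio of 0.02. Mfap4 was below the floor on both arrays and has no ratio. Of 16 genes listed as related, 13 were measured and 11 were above 0, with a median of 0.29 and none at least 2-fold apart. Ltbp3, a latent TGF-beta binding protein, had -0.08.

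Both measured lysyl oxidases were higher. Loxl1, which acts on elastic fibres, read 164 units in the null pool and 72.7 units in the heterozygous pool, 2.26-fold higher. Its other probe set was below the floor on both arrays. Lox read 199 units in the null pool and 117 units in the heterozygous pool, a log2 ratio of 0.77, and its second probe set read 108 units in the null pool and 40.5 units in the heterozygous pool, a ratio of 1.42. Lox was thus the 1 member whose dimmer probe set was past 2-fold while its brightest was not. The relative Loxl3 had a ratio of 0.34, and Loxl4 was below the floor on both arrays.

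**Figure D2:**
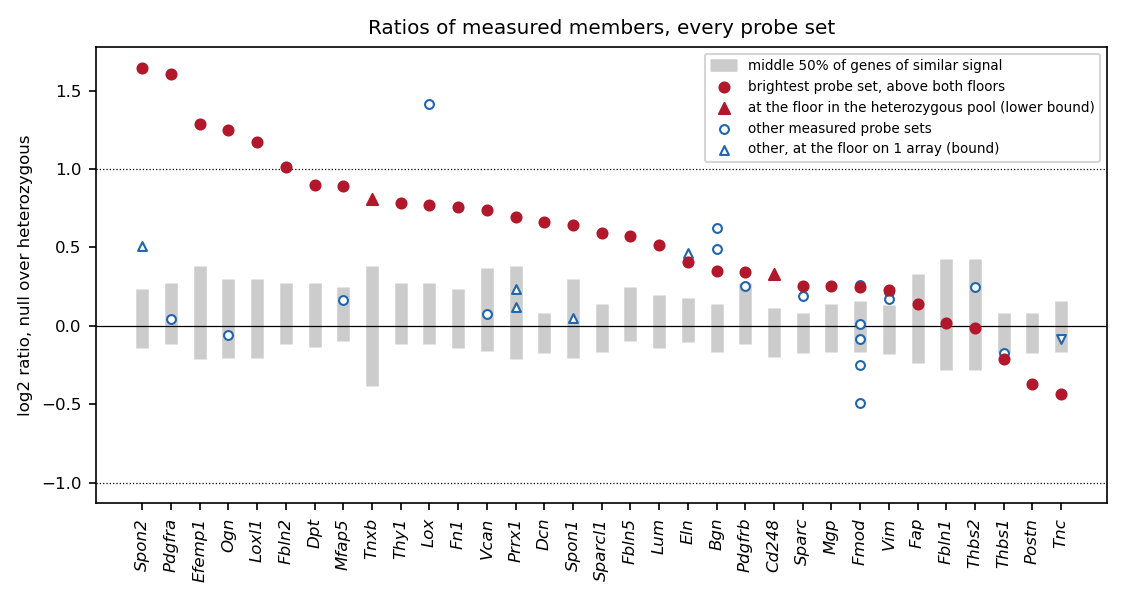
Log2 ratio of null over heterozygous for the 33 measured members in order of ratio, with filled points for the brightest probe set, triangles where the heterozygous signal was at the floor, rings for other measured probe sets, open triangles for those at the floor on 1 array (pointing up for a lower bound, down for an upper bound), grey bars for the middle 50% of genes of similar signal, and dotted lines at 2-fold. Ratios run from 1.65 for Spon2 to -0.44 for Tnc, and the rings of Pdgfra and Ogn lie well below their filled points.

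The adhesive and matricellular proteins held both the highest and the lowest ratios of the list. Spon2, a secreted matrix protein that also binds bacterial products, read 459.6 units in the null pool and 147 units in the heterozygous pool, a log2 ratio of 1.65. Its second probe set read 48.7 units in the null pool and 5.52 units, below the floor, in the heterozygous pool, a ratio of at least 0.51. Spon1, its relative, had a ratio of 0.64, with 141 units in the null pool and 90.1 units in the heterozygous pool. Its second probe set read 35.4 units in the null pool and 26.1 units, below the floor, in the heterozygous pool, which bounds its ratio at 0.05 or more. Dpt, dermatopontin, a decorin-binding protein, read 257 units in the null pool and 138 units in the heterozygous pool. Fn1, fibronectin, the main cell-binding glycoprotein of stroma, read 382 units in the null pool and 226 units in the heterozygous pool, a ratio of 0.76. Tnxb, tenascin-X, read 60.0 units in the null pool and 27.8 units, below the floor, in the heterozygous pool, and was at least 1.75-fold higher.

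Other members of this group were moderately higher or nearly level. Vcan, versican, a large hyaluronan-binding proteoglycan, had ratios of 0.74 and 0.08 at its 2 measured probe sets, while 6 others were below the floor. Sparcl1 read 1023 units in the null pool and 678 units in the heterozygous pool, a ratio of 0.59. Sparc, a collagen-binding glycoprotein, had smaller ratios of 0.26 and 0.19 at its measured probe sets, with 3907 units in the null pool and 3271 units in the heterozygous pool at the brighter. Mgp, matrix Gla protein, an inhibitor of calcification, had a ratio of 0.25, from 944 units in the null pool and 792 units in the heterozygous pool. Thbs2 read 59.5 units in the null pool and 60.2 units in the heterozygous pool, a ratio of -0.02, with 0.25 at its second probe set, and is given no direction.

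Tnc, Postn and Thbs1 went the other way. Tnc, tenascin-C, a matrix protein of growing and healing tissue, read 523 units in the null pool and 707 units in the heterozygous pool, a log2 ratio of -0.44. Postn, periostin, which binds collagen and integrins, read 2647 units in the null pool and 3421 units in the heterozygous pool, a ratio of -0.37. Thbs1, thrombospondin-1, an activator of latent TGF-beta, had ratios of -0.21 and -0.17 at its 2 probe sets, with 2304 units in the null pool and 2668 units in the heterozygous pool at the brighter. None of them was 1.5-fold lower, and on the scale of the hybridization controls Thbs1 was at 0.02 while Tnc and Postn were at -0.21 and -0.14. Relative to genes of similar signal, Tnc lay at the 7.06th percentile, Postn at the 7.90th and Thbs1 at the 19.5th. Among 24 related matricellular genes, 14 were measured and 9 were above 0 (median 0.21). Of these, Ccn2, connective tissue growth factor, a target of TGF-beta and YAP signalling, read 1077 units in the null pool and 2494 units in the heterozygous pool, 2.31-fold lower, while Ccn1 of the same family had a ratio of 0.35.

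Of the 3 intracellular proteins 2 were measured, both above 0. Vim, vimentin, the intermediate filament of mesenchymal cells, had ratios of 0.23, 0.22 and 0.17 at its 3 probe sets, and its brightest read 1833 units in the null pool and 1563 units in the heterozygous pool. These ratios were nearly equal. Prrx1, a homeobox factor of mesenchyme, read 74.8 units in the null pool and 46.3 units in the heterozygous pool, a ratio of 0.69, while at 2 dimmer probe sets, below the floor in the heterozygous pool, the ratios were at least 0.24 and 0.12. Twist1, a basic helix-loop-helix factor, was below the floor on both arrays.

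Set against genes of similar signal, the members lay mostly at the upper end. The measured genes were divided into 20 bins of 594 or 595 genes by mean signal. In these bins 27 of the 33 members were above the upper quartile of their bin, against 25.1% of all genes, and 23 were above the 90th percentile, against 10.1%. Of the 31 members above both floors, 25 were above the upper quartile, against 24.0% of genes above both floors, and 21 were above the 90th percentile, against 9.25%, with a median percentile of 94.3. The median percentile of the 33 members was 94.4, and 3 members, Tnc, Postn and Thbs1, were below the lower quartile. The robust SD of the ratios in the members' bins, which holds real differences as well as noise, ran from 0.19 to 0.57.

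**Figure D3:**
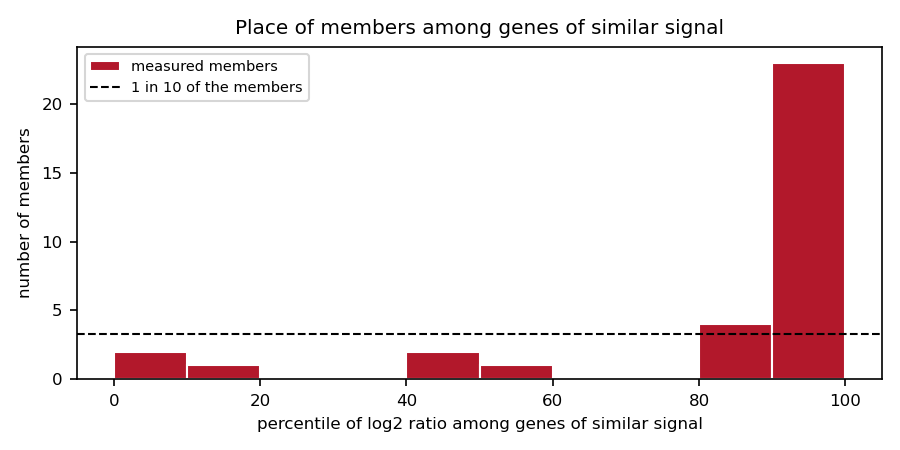
Number of the 33 measured members by the percentile of their log2 ratio among genes of similar signal, in steps of 10, with a dashed line at 1 in 10 of the members. The last step holds 23 members, and the first holds 2, Tnc and Postn.

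The size of the ratio differed with the signal. The 9 members with a mean signal of 100 to 200 units had a median ratio of 0.90, all of them above 0, and 4 of the 6 genes at least 2-fold higher were among them. Of all 2358 genes in that range, 1411 were above 0 and 30 were at least 2-fold higher. The 11 members of 200 to 1000 units had a median of 0.51, and the 5 members over 1000 units, Dcn, Postn, Sparc, Thbs1 and Vim, had 0.23. The 8 members under 100 units, where the floor shortens ratios, had 0.51. All genes in the same ranges had medians of 0.08, 0.03, -0.03 and 0.02. Across the 33 members Spearman's rho of ratio with mean signal was -0.31, against -0.07 across 10610 genes above both floors, all of which share the same 2 arrays.

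Probe sets of the same gene had the same sign in most members and often differed in size. Of the 81 probe sets, 57 were measured, and 47 of these were above 0, against 50.4% of all measured probe sets. At least 2-fold higher were 7 of them, against 0.965% of probe sets, and 0 were at least 2-fold lower, against 1.19%. The floor fixed the sign of each member probe set above it on 1 array alone, which was the null array for 7 probe sets and the heterozygous array for 1, in Tnc. Of the 49 above both floors 40 were above 0, against 51.6% of all such probe sets. The median over the 57 was 0.26, less than over the brightest probe sets. For 12 members 2 or more probe sets were above both floors, and in 9 of these all had the same sign, the exceptions being Fmod, Ogn and Thbs2, against 53.5% of 4722 genes with 2 or more. The highest and lowest ratio of a member were 0.57 apart at the median over 17 members with 2 or more measured, bounds included, and 1.56 apart for Pdgfra. Over all 5418 genes with 2 or more measured probe sets that median was 0.34, so the members' probe sets differed more in size. Of the 6 genes at least 2-fold higher, Efemp1, Fbln2 and Loxl1 had 1 measured probe set each. The second probe sets of Pdgfra and Ogn were short of 2-fold, and that of Spon2 gives only a bound. Averaged over the measured probe sets, Pdgfra and Ogn had ratios of 0.82 and 0.59, short of 2-fold, and Lox had 1.09. Probe sets of a gene read the same 2 pools and are not replicates.

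Fibrillar collagens and the enzymes that process them, which build the fibrils these proteoglycans bind, were above 0 in 15 of 20 measured genes of 22 listed, with a median of 0.24. Col1a2, a chain of type I collagen, was 3.02-fold higher and the 1 gene of that list at least 2-fold apart. Col1a1, its partner chain, read 822 units in the null pool and 788 units in the heterozygous pool, a ratio of 0.06. Hyaluronan synthases, receptors and binding proteins were above 0 in 0 of 6 measured genes of 12 listed. Their median was -0.45, and -0.22 on the scale of the hybridization controls. Of the 6, Acan and Hapln3 passed the floor in the heterozygous pool alone and so could only be below 0. With both left out, the median of the remaining 4 was -0.46. Cd44, the hyaluronan receptor, had a ratio of -0.28. Among 24 other fibroblast markers 19 were measured, 14 were above 0 and 3 were at least 2-fold higher, with a median of 0.30. These 3 were Osr1, a transcription factor of connective tissue (2.31-fold), Serping1, the C1 inhibitor (2.20-fold), and Cd34, which endothelial cells also carry (2.01-fold). Among these markers Pi16, Clec3b and Dlk1 passed the floor in the null pool alone, and Tcf21 and Twist2 in the heterozygous pool alone. Their ratios are bounds. Over the 14 markers that passed on both arrays the median was 0.49.

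Most markers of other stromal cells were also higher in the null pool. All 15 endothelial markers were above 0, with a median of 0.42, and their summed signal was 4244 units in the null pool and 3024 units in the heterozygous pool. Vwf was 2.49-fold higher. Of 9 measured macrophage markers of 11 listed, 7 were above 0 (median 0.29), with a sum of 6919 units in the null pool and 5283 units in the heterozygous pool and Lyz2 at 0.43, while Cd163 was below the floor on both arrays. Pericyte and smooth muscle markers were above 0 in 8 of 12 (median 0.14), with sums of 22031 units in the null pool and 22363 units in the heterozygous pool, but 3 of them, Acta2, Myh11 and Cnn1, are also myoepithelial and make up most of that sum; Acta2 had -0.11. Without Mrc1 and Kcnj8, which were above the floor in the null pool alone, the macrophage and pericyte medians were 0.31 and 0.06. The members themselves summed to 22455 units in the null pool and 18997 units in the heterozygous pool.

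Epithelial and fat cell lists did not share the difference. Myoepithelial markers were above 0 in 3 of 11 (median -0.11, and 0.12 on the scale of the hybridization controls), with sums of 21354 units in the null pool and 23619 units in the heterozygous pool, and Krt17 was 2.93-fold lower. Adipocyte markers were above 0 in 0 of 7 measured genes of 10 listed (median -0.33, and -0.10 on the scale of the hybridization controls), with sums of 13026 units in the null pool and 16217 units in the heterozygous pool, and Adipoq was at least 2.05-fold lower. Adipoq and Lep were above the floor in the heterozygous pool alone and so could only be below 0. The 5 genes above both floors also had a median of -0.33. The luminal list summed to 82262 units in the null pool and 84743 units in the heterozygous pool. The part of the endothelial, macrophage, pericyte, myoepithelial and fat cell content in the members' ratios was not tested.

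**Figure D4:**
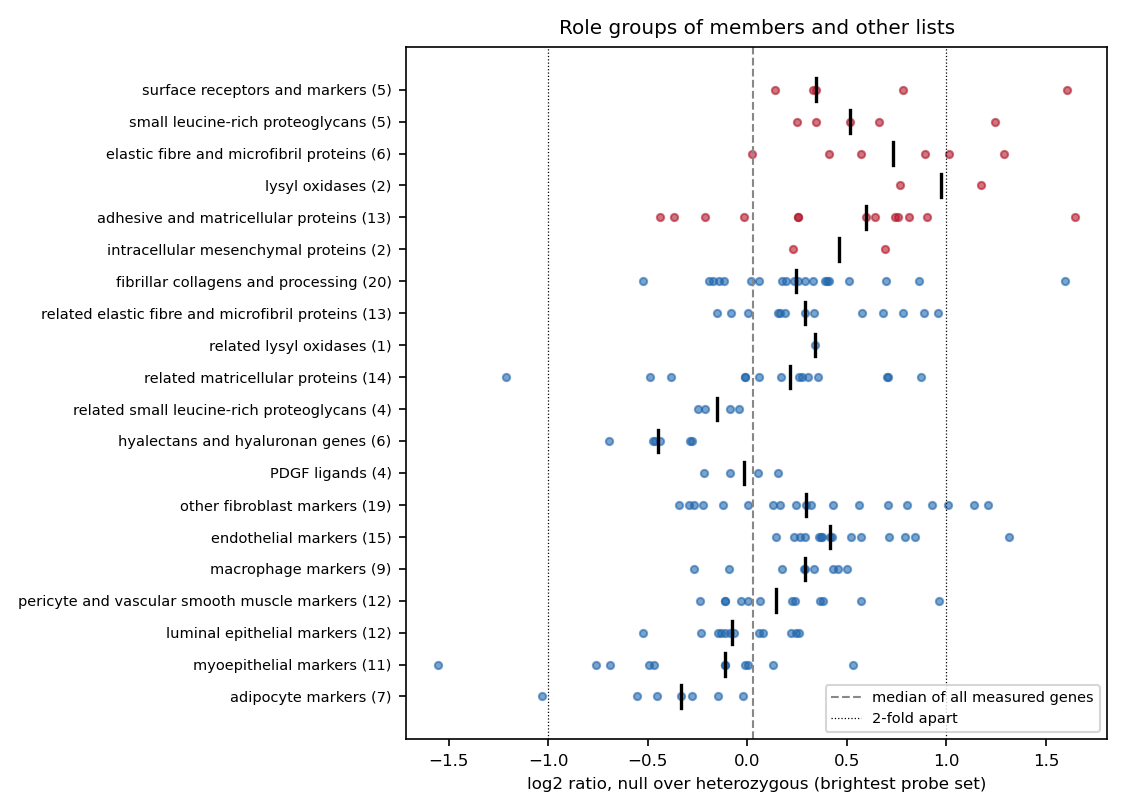
Log2 ratio of null over heterozygous of each measured gene in the 6 role groups (upper points) and in 14 other lists, with a black bar at each median, the number of measured genes in brackets, a dashed line at the median of all measured genes (0.03) and dotted lines at 2-fold. All role groups have medians between 0.34 and 0.97, the endothelial list is at 0.42, and the adipocyte and hyaluronan lists lie below 0.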

How the data were processed

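RNA from 1 pool of 5 mice per genotype was hybridised to 1 3′ expression array each. The deposited values are linear signal intensities per probe set, which the authors, per the submitters' processing notes, computed by MAS5 with version 1 of Affymetrix Expression Console. No genome build is named in these sources. The mean after trimming 2% at each end was 150.0 on both arrays, so each carries 1 scaling factor, which assumes equal total signal in both pools. Detection calls were not used here.

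Of 45101 probe sets, 34958 had 1 gene symbol in the platform annotation, updated through Entrez IDs, 932 had several and were not named, and 64 were controls. Signals were floored at the median of each array (50th percentile), the brightest probe set stood for a gene, and log2 ratios (null over heterozygous) were computed with Python 3.11.15, pandas 2.3.3 and numpy 2.4.6. Each genotype has 1 array, so differences have no replicate check, and the number of arrays limits the precision. A 2-fold difference is a rule of size. The procedure was tested on simulated data, with differences planted only in genes over 200 units and the same spread of noise at every signal. That test does not cover dimmer genes, which include most of the members at least 2-fold higher. Members and lists were chosen with earlier results of these data known. Every member was accounted for, and from each other list up to 3 genes at least 2-fold apart or else the brightest gene were named. Ccn1, Col1a1 and Loxl4 were named after their values were seen, as was the reading of motifs in promoters. The alternatives were other floors, a constant added to the signal, quantile normalization, scaling to the hybridization controls, members above both floors, and the mean over probe sets.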

Additional observations from a re-analysis of the deposited data

How the results depend on the processing

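Over 8 alternatives 28 of the 33 members kept a ratio above 0 wherever they were measured, and Tnc and Postn kept one below 0. Fmod, Thbs1 and Thbs2 changed sign. The members' median ran from 0.43 to 0.82, and its distance from the median of all genes from 0.40 to 0.61. It was 0.43 under a 75th percentile floor (24 members measured), 0.82 on the hybridization-control scale and 0.49 as the mean over probe sets. The count of members at least 2-fold higher, 6 as deposited, was 1 with the 75th percentile floor (Spon2; Efemp1 was below that floor on both arrays), 10 on the hybridization-control scale and 2 with 32 units added, while the share of all genes at least 2-fold higher was 1.12% as deposited and 0.339%, 2.94% and 0.504% under these settings. Added after the data were seen, a fold of 1.5 gave 17, against 5.83% of all genes. Asking for every measured probe set, also added then, gave 3 (Efemp1, Fbln2 and Loxl1, with 1 measured probe set each). The share of all genes under that rule was not computed, so the 3 have no background to be set against. Spon2's second probe set gives only a bound. For probe sets at least 2-fold higher, the count was 7 as deposited, 12 with no floor and 14 with the 25th percentile floor. It was 1 with the 75th percentile floor, 11 on the hybridization-control scale and 3 with 32 units added. The share of all probe sets was not computed under these settings. For all genes, the share at least 2-fold higher also rose, to 3.11% with no floor and 4.14% with the 25th percentile floor. With the 25th percentile floor 3 probe sets were at least 2-fold lower, against 0 as deposited. Of all genes, 817 of 16091 were at least 2-fold lower with that floor, against 123 of 11893 as deposited. Of all genes past 2-fold, 85.5% were higher on the hybridization-control scale (349 higher, 59 lower), against 52.0% with the deposited scaling. No paired analysis was possible because each genotype has 1 array.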

Other observations

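Several genes of related function outside the list also read lower in the null pool, given here as values chosen after they were seen. Has2, a hyaluronan synthase, read 78.8 units in the null pool and 128 units in the heterozygous pool, a log2 ratio of -0.69, and Tnfaip6, which modifies hyaluronan, had -0.44. P4ha1, a collagen prolyl hydroxylase, had -0.52. Of the lysyl hydroxylases of collagen, Plod2 and Plod3 had -0.17 and -0.19, but Plod1 had 0.33. The collagen chain Col6a3 had 0.86 and Pcolce, an enhancer of procollagen cleavage, 0.70. Serpinh1, the collagen chaperone of the endoplasmic reticulum, had -0.14. On the hybridization-control scale each of these ratios is 0.23 higher, which puts Plod2, Plod3 and Serpinh1 above 0.

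The highest ratios in the list of elastic fibre and microfibril relatives, picked after they were seen, included Fbn2, Ltbp2 and Ltbp4 at 0.89, 0.78 and 0.68. Mmrn2, an endothelial matrix protein in that list, had 0.96. In the same list Ltbp1 and Ltbp3 had 0.19 and -0.08, and the median was 0.29. Of secreted SPARC-related proteins, Smoc2, Smoc1 and Fstl1, also picked after their values were seen, had ratios of 0.87, 0.70 and 0.70. Spock2 had 0.06. None of the genes named in this paragraph was 2-fold apart.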
